A study of Homo sapiens with 3 samples.

Results

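Within the DMSO library of OVCAR3 cells, 924 cells with 5000 to 20000 unique molecular identifiers (UMIs, the count of captured RNA molecules) drew less than 2% of their UMIs from the mitochondrial genome. These low-MT cells were selected on that share alone and were set against 816 high-MT cells of the same library and UMI range, selected on a share of 4 to 20%. They made up 50.6% of the 1825 DMSO cells in that range (95% exact binomial interval 48.3 to 52.9%) and 12.3% of the 7531 DMSO cells kept, out of 25985 kept cells in 3 libraries. Only 85 cells, or 4.66%, lay between both limits.

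OVCAR3 is a human cell line used as a model of high-grade serous ovarian cancer. The study profiled it by 10x Genomics 3′ single-cell RNA-seq after 48 hours with the solvent DMSO alone, with 50 μM of the RAC1 inhibitor NSC23766 (RAC1i), or with 50 μM RAC1i and 5 μM of the EZH2 inhibitor GSK126 (Combo), to ask how the inhibitors act on subpopulations of the line. Cells given the EZH2 inhibitor alone, another condition of the study, were not analysed here. All 3 libraries received DMSO, since both inhibitors were dissolved in it. Each condition was 1 library, so no comparison carries a test across samples. Every interval given is for counting error only and says nothing about the spread between cultures. Intervals of ratios also leave out the spread between cells.

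Mitochondria carry a small genome of their own, whose transcripts encode core subunits of the respiratory chain and stay inside the organelle. Messenger RNAs (mRNAs) of cytosolic proteins are translated on free ribosomes, whereas mRNAs of secreted and membrane proteins are mostly translated at the surface of the endoplasmic reticulum. Some long noncoding RNAs, such as MALAT1 in nuclear speckles and NEAT1 in paraspeckles, remain in the nucleus. The share of mitochondrial UMIs per cell is commonly used as a sign of cell quality in single-cell data.

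The libraries held 9757 to 11772 cell barcodes, of which 7531 to 10215 were kept, with a median of 20989 to 26750 UMIs per kept cell. DMSO cells had the highest mitochondrial share over all kept cells, with a median of 5.60%, while RAC1i cells were at 1.66% and Combo cells at 1.58%. Each pair of libraries shared 29 or 30 barcodes, and 5 of the 924 low-MT and 5 of the 816 high-MT cells carried one of them. Doublets were not removed and no doublet caller was run. The 16 markers of blood, endothelial, stromal, liver, pigment and neuronal cells all stayed under 20 UMIs in each 1e6 (CPM) in every library, summing to 3.10 CPM in low-MT and 12.4 CPM in high-MT cells.

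In DMSO the mitochondrial share of cells in this UMI range fell into 2 sets with few cells between. The low-MT cells had a median share of 0.482% and the high-MT cells of 10.0%. A share under 0.5% was found in 477 DMSO cells, or 26.1% of the range, against 172 cells (4.46%) in RAC1i and 114 cells (4.70%) in Combo. In the treated libraries the cells formed a continuous range instead, with 1210 RAC1i cells (31.4%) and 741 Combo cells (30.6%) between 2 and 4%.

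**Figure D1:**
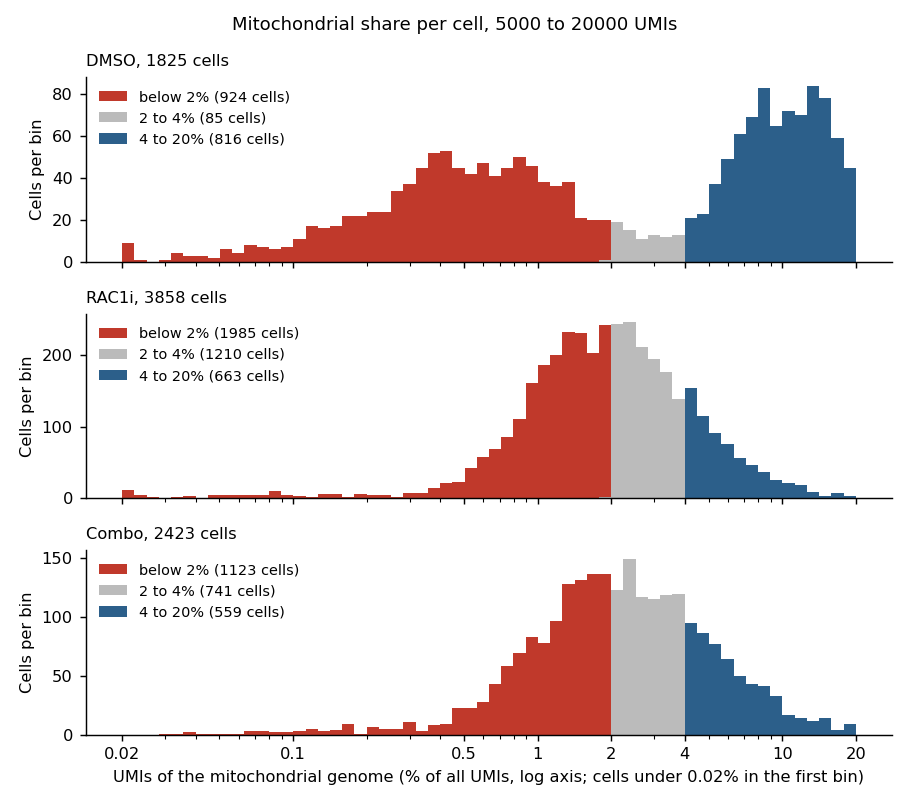
Histograms of the mitochondrial share of UMIs per cell (log axis, percent) for kept cells with 5000 to 20000 UMIs, one panel per library, with the number of cells on the y axis and the limits of 2% and 4% marked. DMSO cells fall into 924 cells below 2% and 816 cells from 4 to 20% with 85 between, while 1210 RAC1i and 741 Combo cells lie between these limits.

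Low mitochondrial share went with depth differently in the libraries. In DMSO, 550 of 806 kept cells under 5000 UMIs (68.2%) were below 2%, but only 133 of 4900 cells over 20000 UMIs (2.71%) were. In RAC1i and Combo the order was the opposite, with 10.8% and 11.8% of the shallow cells and 74.6% and 79.4% of the deep cells below 2%.

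Within the shared UMI range the low-MT cells were still the shallower group, with a median of 8178 UMIs against 15489 and a median of 2351.5 detected genes against 4160.5. Of the low-MT cells, 68.8% had under 10000 UMIs, compared with 20.3% of the high-MT cells. When the UMIs of the nuclear genome of each cell were thinned to 4000, low-MT cells still showed fewer genes, with a median of 1520.5 (5th to 95th percentile 1357 to 1693) against 1923 (1668.8 to 2142.5). This held at each depth, with thinned medians of 1516.5, 1527 and 1544 genes for low-MT cells with 5000 to 10000, 10000 to 15000 and 15000 to 20000 UMIs, and of 1938.5, 1942 and 1906.5 for high-MT cells. At equal depth, then, the RNA of a low-MT cell was spread over fewer genes.

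The 13 mitochondrial transcripts chose the cells, so their level is a description and supports nothing. They gave 49379 of 8423576 UMIs (0.586%) in low-MT and 1228262 of 11757579 UMIs (10.4%) in high-MT cells. Their make-up, which the rule did not use, was similar. MT-CO3, a subunit of cytochrome c oxidase, was the most abundant in both groups with 22.2% and 20.9% of mitochondrial UMIs, followed by MT-CO2 with 17.2% and 17.4%. The ratio of shares ran from 0.778 for MT-ND2 (interval 0.740 to 0.818) to 1.51 for MT-ND6 (1.36 to 1.67), both subunits of complex I. MT-ND6, the transcript with the highest relative share in low-MT cells, was also relatively higher below 2% among RAC1i cells, with a ratio of 1.30, and Combo cells, with 1.15.

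Because the rule sets the mitochondrial UMIs, all levels that follow are CPM over UMIs of the nuclear genome, summed over the 8374197 such UMIs of the low-MT and the 10529317 of the high-MT cells. A gene was called when the groups differed by at least 1.5-fold with at least 20 CPM in the higher one. A gene under 20 CPM in low-MT cells entered only through the high-MT group and could not be called higher. Counts of lower genes, here and in all lists below, follow in part from this minimum. Of 6439 genes with 20 CPM in either group, 410 (6.37% of those measured) were called higher and 2883 (44.8%) lower in low-MT cells, and the median gene had a log2 ratio of −0.42. The split depends on the CPM minimum and on the scaling. At a minimum of 50 CPM, 21.4% of called genes were higher and the median gene stood at −0.07. Without a minimum beyond 3 UMIs in either group, 8.38% were higher and the median gene stood at −0.81. Called genes were higher in 12.5% of cases here, in 28.4% with CPM over all UMIs, in 65.0% with TMM factors and in 67.6% with median-of-ratios factors, where the median gene stood at +0.45 and +0.53. With TMM factors, 45.1% of the 6144 genes measured were called higher and 24.3% lower, and the counts with TMM factors below are read against those shares. Directions below are therefore read against the median gene, and a list whose sign turned with the scaling is marked.

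Long noncoding RNAs listed as nuclear were far lower in low-MT cells, though where each of them lay in these cells was not measured. Of 9 measured nuclear long noncoding RNAs, 8 were called lower and 0 higher, with a median log2 ratio of −2.82 against −0.42 for all genes, and 7 of 9 were lower with TMM factors (median −2.12). Summed, they gave 2134 CPM in low-MT and 55412 CPM in high-MT cells, a 26.0-fold difference (25.6 to 26.4). The 85 cells between the limits lay between both groups with 17061 CPM.

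MALAT1 (chromosome 11, 65497640 to 65508073, GRCh38), the speckle RNA, had 1820 CPM in low-MT and 39087 CPM in high-MT cells, 21.5-fold apart (21.1 to 21.8). NEAT1 (chromosome 11, 65422774 to 65445540), the scaffold RNA of paraspeckles, had 135 CPM against 15343 CPM, 114-fold apart (107 to 121) and the furthest of all genes with at least 50 CPM. KCNQ1OT1 (chromosome 11, 2597308 to 2700003), a chromatin-bound imprinted RNA, had 6.09 CPM against 430.2 CPM, 70.6-fold apart (53.6 to 95.03). TUG1 had 17.8 CPM against 107 CPM. OIP5-AS1, at 65.2 CPM against 80.9 CPM, was the one measured member not called, and its direction turned with TMM and median-of-ratios factors. MALAT1 and TUG1 were picked from the list after their values were seen.

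The difference in MALAT1 was present cell by cell. Its share of nuclear-genome UMIs had a median of 0.0665% in low-MT cells (5th to 95th percentile 0.0197 to 0.796%) and of 2.83% in high-MT cells (0.463 to 10.5%). Below 0.2% MALAT1, a limit set after the values were seen, lay 838 of 924 low-MT cells (90.7%, interval 88.6 to 92.5%), 54 of the 85 cells between the limits and 25 of 816 high-MT cells (3.06%). In RAC1i and Combo only 310 of 1985 cells (15.6%) and 158 of 1123 cells (14.1%) with a low mitochondrial share lay below it. Below 2% mitochondrial UMIs, most DMSO cells of the range thus had a low MALAT1 share, but only a minority of treated cells did. Treated cells below 2% had a higher median mitochondrial share, 1.20% (RAC1i) and 1.23% (Combo), than the 0.482% of low-MT cells. Under 0.5%, the median MALAT1 share was also below 0.2% with treatment, at 0.122% for 172 RAC1i cells and 0.197% for 114 Combo cells. The 477 DMSO cells there had a median of 0.0610% and an upper quartile of 0.0981%. Upper quartiles of the treated cells were 0.708% (RAC1i) and 0.679% (Combo).

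**Figure D2:**
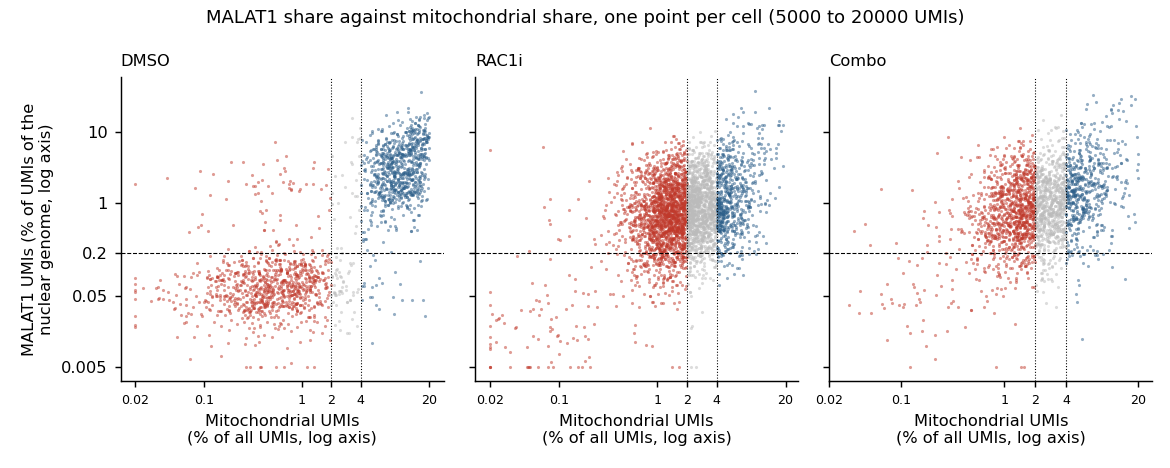
Share of MALAT1 among nuclear-genome UMIs (percent, log axis) against the mitochondrial share of UMIs (percent, log axis) for each kept cell with 5000 to 20000 UMIs, one panel per library. Dotted lines mark 2% and 4% mitochondrial UMIs and the dashed line 0.2% MALAT1, and 838 of the 924 low-MT DMSO cells lie below the dashed line. Cells under 0.02% mitochondrial UMIs or under 0.005% MALAT1 are drawn at those values.

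With cells thinned to 4000 UMIs, NEAT1 was detected in 29.8% of low-MT and 97.4% of high-MT cells, and in 50.9% and 98.3% before thinning. KCNQ1OT1 was detected in 2.60% against 67.3% after thinning and 4.87% against 88.1% before it. GAPDH, a cytosolic glycolytic enzyme, was found in 100% and 99.8% of thinned cells, and in 100% and 99.9% before thinning. The libraries hold a single cell line, so no cell type that lacks these genes gives a background, and the part of free RNA in such shares was not tested.

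The 86 low-MT cells with at least 0.2% MALAT1 stood between the remaining low-MT cells and the high-MT cells on several measures. Their NEAT1 level was 745 CPM, against 78.1 CPM in the 838 cells below that limit. Chaperones of the endoplasmic reticulum reached 1406 CPM against 853 CPM, and thinned genes a median of 1592.5 against 1515. On other measures the 86 cells lay further from the high-MT cells. Their median depth was 7390.5 UMIs against 8296.5, with 15489 in high-MT cells. Their median treatment score, described below, was −1.11 against −1.30, with −1.99 in high-MT cells. The 25 high-MT cells below 0.2% MALAT1 had 675 CPM NEAT1 and 1857 CPM of these chaperones.

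Just inside the limit, 49 DMSO cells with 1.5 to 2% mitochondrial UMIs had a median of 0.0833% MALAT1 and 1543 thinned genes. Just outside, 34 cells with 2 to 2.5% had 0.0904% MALAT1 and 1579.5 thinned genes. From 2.5 to 4%, the 51 cells had 0.143% MALAT1 at the median and 2.33% at the upper quartile. The 407 cells from 4 to 10% had 2.39% MALAT1 and 1875 thinned genes. The medians on both sides of 2% were closer to each other than to those of cells above 4%.

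Messenger RNAs held back in speckles or with detained introns were also mostly lower. Of 20 measured members, 16 were called lower and 0 higher, with a median of −1.38, and 10 of 19 were lower with TMM factors (median −0.64). Over all 23 listed genes, measured or not, the sum was 1903 CPM against 3479 CPM, 1.83-fold apart (1.79 to 1.86). AKAP9, a scaffold of the centrosome and Golgi, was furthest apart with 11.1 CPM against 184 CPM.

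Immediate early genes encode transcription factors and regulators induced within minutes of a stimulus. Of 13 measured members, 11 were lower and 0 higher, with a median of −2.60 and of −1.89 with TMM factors. Over all 24 listed genes, measured or not, the sum was 411 CPM against 1539 CPM, 3.74-fold apart (3.61 to 3.88). FOSB had 0.716 CPM, from 6 UMIs, against 80.4 CPM, 112-fold apart (51.4 to 307). FOS had 3.22 CPM against 147.5 CPM, 45.8-fold apart (31.3 to 69.6), and was detected in 1.52% against 35.2% of thinned cells, or 2.81% against 60.4% of cells before thinning. EGR1 had 2.87 CPM against 90.1 CPM. These RNAs were among the 12 genes furthest down, next to NEAT1 and KCNQ1OT1. Others of the 12 were 25.8-fold to 37.6-fold apart, among them LAMC1, the potassium channel KCNK6, the membrane scaffold KIDINS220, the tight junction protein CGN, the cadherin CELSR2 and POLR2J3, whose UMIs are uncertain because near-identical copies share reads with it.

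Named long noncoding RNAs beyond that list lay below the median gene on both scales, but with TMM factors many were called higher. Of 71 measured antisense and intergenic RNAs, chosen by their symbols after values were seen, 49 were called lower and 5 higher (median −1.25). All 3442 listed ones, measured or not, summed to 2714 CPM against 5653 CPM. With TMM factors 24 of 64 were lower and 18 higher, with a median of −0.07 against +0.45 for all genes. On that scale 24.3% of all genes were lower and 45.1% higher. Among the higher ones was LINC01899, with 71.2 CPM against 35.6 CPM. By annotation, 174 measured genes were long noncoding RNAs. Without TMM factors, 112 of them (64.4%) were lower and 8 (4.60%) higher, beside 44.8% lower and 6.37% higher among all genes. Zinc finger genes with ZNF symbols, many of which encode DNA-binding proteins, were lower in 47 of 65 cases with 1 higher. Among all genes 44.8% were lower and 6.37% higher on that scale. All 509 listed ZNF genes, measured or not, summed to 2860 CPM against 5230 CPM. With TMM factors 17 of 53 were lower and 12 higher, with a median of −0.24 that is also below that of all genes.

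Messenger RNAs of the secretory pathway and of membrane proteins were low as well. All 16 chaperones and folding enzymes of the endoplasmic reticulum were called lower in low-MT cells, with a median log2 ratio of −2.50, and 13 of 16 with TMM factors (median −1.79). Their sum was 899.8 CPM against 4515 CPM, 5.02-fold apart (4.90 to 5.14), with 2219.9 CPM in the 85 cells between the limits. HSPA5, the main chaperone of the endoplasmic reticulum, had 74.9 CPM against 579.5 CPM, and CALR, the calcium-binding lectin chaperone calreticulin, 147 CPM against 779 CPM. The members ran from HYOU1, at 3.34 CPM against 40.4 CPM, to SDF2L1, at 96.2 CPM against 149 CPM, whose direction turned with TMM and median-of-ratios factors.

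**Figure D3:**
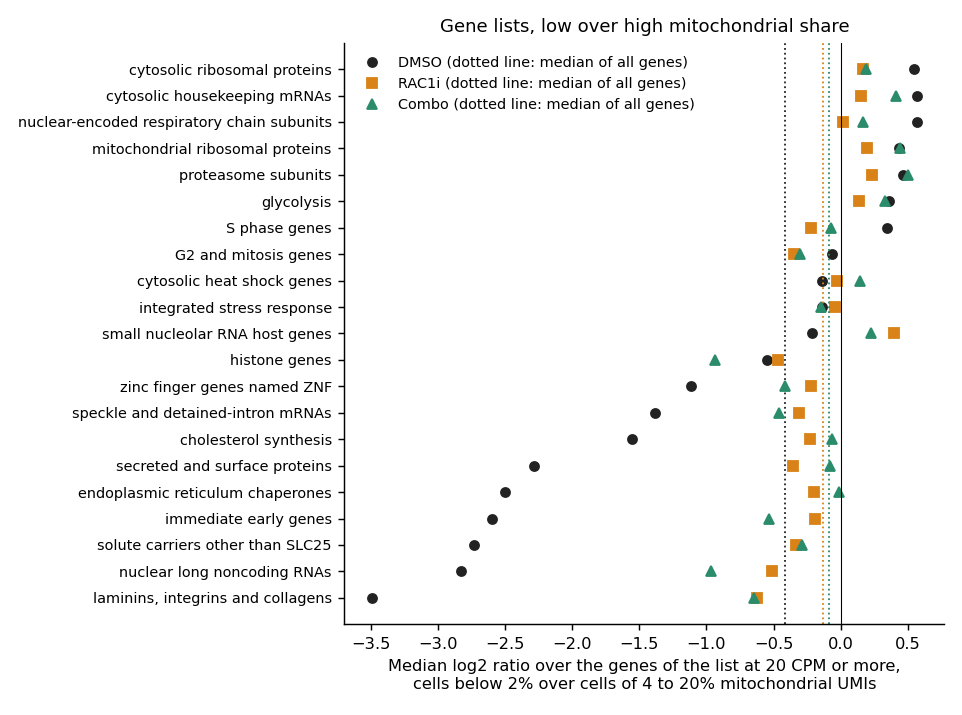
Median log2 ratio of low-MT over high-MT cells for each gene list, one row per list, with 1 point for DMSO, RAC1i and Combo each, and a dotted line at the median of all genes of each library. Endoplasmic reticulum chaperones lie at −2.50 in DMSO but at −0.20 in RAC1i and −0.02 in Combo, and nuclear long noncoding RNAs at −2.82, −0.51 and −0.96.

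Secreted and surface proteins had 19 of 21 measured members lower and 0 higher, with a median of −2.29 (−1.58 with TMM factors) and a sum of 5385 CPM against 14885 CPM. MUC16, the mucin that carries the CA125 antigen, had 11.9 CPM against 217.5 CPM, 18.2-fold apart (14.9 to 22.5), and was detected in 4.11% against 49.8% of thinned cells, or 7.79% against 81.4% before thinning. CDH1, the epithelial cadherin, had 4.66 CPM against 72.9 CPM. CD24, a small surface sialoglycoprotein, was level at 532 CPM against 528 CPM.

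Laminins, integrins and collagens build and bind the extracellular matrix and were chosen by symbol after values were seen. All 14 measured members were lower, with a median of −3.49 (−2.79 with TMM factors). A member was measured with 20 CPM in either group, so members under 20 CPM in low-MT cells entered through the high-MT group. This count follows in part from that minimum. Over all 82 genes of the list, measured or not, the sum was 199.5 CPM against 1932 CPM, 9.68-fold apart (9.21 to 10.2). LAMC1, the laminin gamma chain of most basement membranes, had 2.75 CPM against 76.5 CPM. Solute carriers outside the mitochondrial family, chosen and measured in the same way, were lower in 49 of 54 cases and higher in 3 (median −2.73, −2.11 with TMM factors). All 290 listed ones summed to 1093 CPM against 4967 CPM. SLC5A3, the sodium-coupled inositol carrier, had 18.4 CPM against 366 CPM, 19.9-fold apart.

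The mitochondrial carriers of the SLC25 family, which cross the inner mitochondrial membrane, were lower in 4 of 19 cases and higher in 1 (median +0.09), beside 44.8% lower and 6.37% higher among all genes. With TMM factors 16 of 20 were higher and 1 lower. Proteins named TMEM were lower in 43 of 80 cases and higher in 0, beside the same 44.8%, with a median of −0.89. With TMM factors 27 of 76 were lower and 25 higher, and the median turned to +0.08. Genes of cholesterol synthesis, whose enzymes sit largely in the endoplasmic reticulum membrane, were lower in 14 of 21 cases and higher in 1 (median −1.55). The TMM scale gave 13 of 22 lower and 6 higher (median −0.81).

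Messenger RNAs of ribosomal proteins and of abundant cytosolic proteins made up more of the RNA of low-MT cells. Ribosomal proteins of the cytosol had 30 of 82 measured members called higher and 1 lower, beside 6.37% higher and 44.8% lower among all genes, with a median of +0.55, and 80 of 82 lay above 0. Higher calls numbered 70 with CPM over all UMIs and 81 with TMM factors. Their sum was 292790 CPM against 198220 CPM, a ratio of 1.48. Per cell they gave a median of 29.0% of nuclear-genome UMIs in low-MT and 19.8% in high-MT cells. RPL31 was the furthest up at 941 CPM against 445 CPM, and RPL7L1 the one called lower at 59.0 CPM against 93.4 CPM, a direction that turned with TMM and median-of-ratios factors.

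The 37 cytosolic housekeeping mRNAs had 17 members higher and 0 lower (median +0.57), and 34 higher with TMM factors. GAPDH had 5548 CPM against 3154 CPM, a ratio of 1.76 (1.73 to 1.78). ACTB, cytoplasmic actin, had 2467 CPM against 1996 CPM and EEF1A1, the elongation factor that brings aminoacyl-tRNA to the ribosome, 6251 CPM against 5232 CPM, both short of the limit. Cytosolic heat shock genes had 2 of 13 higher and 2 lower with a median of −0.14, and 6 higher and 0 lower with a median of +0.57 with TMM factors. Translation initiation factors had 3 of 45 higher, near the 6.37% of all genes, and 8 lower (median +0.30), and with TMM factors 30 of 46 higher and 3 lower. The small Sm and LSm proteins of the spliceosome had 8 of 21 higher and 0 lower (median +0.54), and all 21 higher with TMM factors. Proteasome subunits had 3 of 35 higher, near the 6.37% of all genes, and 1 lower (median +0.46). Their higher calls numbered 19 with CPM over all UMIs and 33 with TMM factors. The one lower was PSMD1, which also changed direction with TMM and median-of-ratios factors.

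Lists of nuclear genes for mitochondrial proteins differed in their calls. Nuclear-encoded subunits of the respiratory chain were higher in 33 of 76 cases and lower in 1, beside 6.37% higher and 44.8% lower among all genes, with a median of +0.57 and a sum of 48003 CPM against 34644 CPM. The one called lower was COX6A1, a subunit of cytochrome c oxidase, whose direction turned with TMM and median-of-ratios factors. Proteins of the mitochondrial ribosome were higher in 14 of 77 cases and lower in 0 (median +0.43). With TMM factors 72 of the 76 and 75 of the 77 were higher and 0 lower in either list. The genes that copy, transcribe and process mitochondrial DNA and RNA had 9 of 23 lower and 0 higher, where 44.8% of all genes were lower, and their median of −0.23 turned positive with TMM and median-of-ratios factors. POLRMT, the mitochondrial RNA polymerase, had 11.9 CPM against 29.2 CPM, and TFAM, which packages mitochondrial DNA, 133.5 CPM against 119.9 CPM. Import and chaperone genes had 3 of 24 called in each direction, and with TMM factors 16 higher and 1 lower.

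The genes with the largest excess in low-MT cells, among those with at least 50 CPM, were small in fold. CRYAB, a small heat shock protein, came first with 507 CPM against 208 CPM, a ratio of 2.44 (2.31 to 2.57). UBE2C, the ubiquitin-conjugating enzyme of the anaphase-promoting complex, had 261 CPM against 113 CPM, 2.31-fold, and CDK1, the mitotic kinase, 161 CPM against 72.6 CPM, 2.22-fold. SNRPD2, an Sm core protein, had a ratio of 2.17, RPL31 of 2.11 and ROMO1, a small protein of the inner mitochondrial membrane, of 2.10. The remaining 6 of the 12, among them CKS1B, NUSAP1 and UBE2T of the cell cycle, lay between 1.93 and 2.01.

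CRYAB also varied between low-MT cells. Its variance over mean at 4000 UMIs was 12.9 in low-MT and 4.80 in high-MT cells, where the median over 5661 genes was 1.04 and 1.05. It was detected in 52.2% of thinned low-MT and 35.8% of thinned high-MT cells, or 64.1% and 56.7% before thinning.

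Counts of cell cycle genes changed with the scaling. The 43 measured genes of G2 and mitosis had 8 higher and 11 lower, beside 6.37% higher and 44.8% lower among all genes, with a median of −0.06. With TMM factors 27 of 46 were higher and 6 lower (median +0.69). Within the list UBE2C was 2.31-fold higher while ANLN, the cytokinesis scaffold anillin, had 3.94 CPM against 63.5 CPM. Of 30 S phase genes, 8 were higher and 3 lower (median +0.34), and with TMM factors 22 were higher and 0 lower. Both medians changed with depth, from −0.61 and −0.11 in cells of 5000 to 10000 UMIs to +0.19 and +0.42 in cells of 10000 to 20000. At 4000 UMIs, 35.0% of low-MT cells (31.9 to 38.1%) and 36.4% of high-MT cells (33.1 to 39.8%) had at least 20 UMIs of G2 and mitosis genes. At least 10 UMIs of S phase genes were found in 30.5% (27.6 to 33.6%) and 26.0% (23.0 to 29.1%). These counts read no phase and only compare UMIs at equal depth.

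The serous epithelial markers were measured in both groups but did not move together. The keratins, which form intermediate filaments in the cytosol, were at least as high in low-MT cells, with KRT8 at 1056 CPM against 648 CPM, KRT7 at 1937 against 1334 CPM and KRT18 at 1416 against 1107 CPM. WFDC2, a secreted marker of serous tumours, had 2240 CPM against 2614 CPM. The membrane and surface markers EPCAM, MUC16, CDH1 and MSLN were 4.79-fold to 18.2-fold lower. PAX8, the lineage transcription factor, had 178 CPM against 458 CPM and was found in 49.5% against 77.5% of thinned cells, or 75.4% against 96.6% before thinning. All 10 markers were measured, 6 were called lower and 1 higher, beside 44.8% lower and 6.37% higher among all genes. The TMM scale gave 5 lower and 3 higher.

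Of the stemness and secretory genes that the study followed, 4 of 8 measured ones were lower and 0 higher, near the 44.8% of all genes. Their median of −0.38 was close to the −0.42 of all genes and turned positive with TMM and median-of-ratios factors. The TMM scale gave 5 of 9 higher and 1 lower. SOX2, a pluripotency factor, had 47.4 CPM against 98.5 CPM. ALDH1A1, an aldehyde dehydrogenase used as a stem cell marker, had 26.5 CPM against 21.9 CPM, a ratio of 1.21 (1.00 to 1.46). SIRT7, a nucleolar deacylase, had 24.2 CPM against 56.5 CPM. OVGP1, the oviduct glycoprotein, had 0 UMIs in all 924 low-MT cells, which by a limit of 3 counts allows a share of up to 0.325% of cells with a UMI, and 0.285 CPM in high-MT cells.

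The genes low in low-MT cells had long transcripts. Canonical transcripts of protein-coding genes had a median length of 1171.5 bases for the 402 higher, 2226 bases for the uncalled and 4864.5 bases for the 2764 lower genes, and coding parts of 495, 963 and 1894.5 bases. GC content was close, with medians of 46.6%, 47.2% and 46.2%. By length, the median log2 ratio was +0.52 for 257 genes under 750 bases, +0.40 from 750 to 1500, −0.05 from 1500 to 3000, −0.76 from 3000 to 6000 and −1.46 for 1215 genes of 6000 bases or more. Of the shortest genes 33.9% were called higher, and of the longest 81.1% were called lower. The library counts UMIs at the 3′ end of a transcript, so these values are not per length.

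Genes of the membrane and secretory lists were lower than other genes of their length in each of these 5 classes. Their medians were +0.09 (6 genes), −0.39 (29), −1.68 (55), −2.94 (58) and −3.20 (34) from short to long, against +0.52, +0.41, −0.03, −0.74 and −1.43 for the other protein-coding genes. Both features are descriptions over genes, which are not independent replicates, and the lists were partly chosen with values known.

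**Figure D4:**
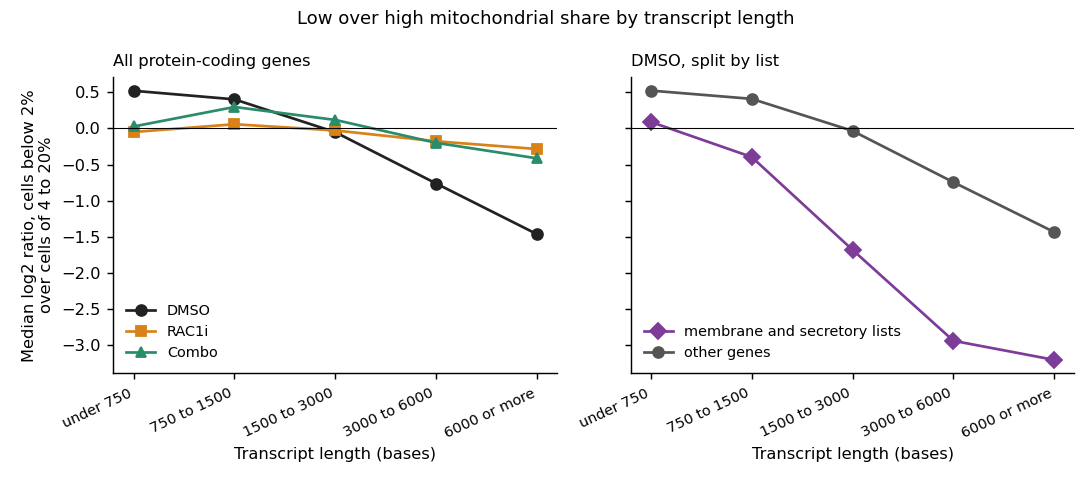
Median log2 ratio of low-MT over high-MT cells (y axis) by length of the canonical protein-coding transcript in bases (x axis, 5 classes), with one panel for all genes in the 3 libraries and one for DMSO genes inside and outside the membrane and secretory lists. In DMSO the median runs from +0.52 for the shortest to −1.46 for the longest genes, while in RAC1i all classes lie between +0.06 and −0.28.

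The same limits on mitochondrial share and UMIs, applied to the treated libraries, compare cells that played no part in the choice of the DMSO groups. In RAC1i, 1985 cells were below 2% and 663 cells from 4 to 20%, and of 5745 measured genes 114 (1.98%) were higher and 843 (14.7%) lower. In Combo, with 1123 and 559 cells, 496 of 5716 genes (8.68%) were higher and 1049 (18.4%) lower. The median gene stood at −0.13 and −0.09. The same limits gave a smaller mitochondrial contrast there, with 1.18% against 6.03% of UMIs in RAC1i and 1.18% against 6.57% in Combo, where DMSO had 0.586% against 10.4%. The order of depth was also the opposite, with a median of 14079 UMIs in cells below 2% against 9008 in RAC1i and of 14255 against 7855 in Combo. The part of both in the differences between libraries was not tested. Fewer genes were thus lower past the limit in either treated library than in DMSO, while more were higher in Combo and fewer in RAC1i.

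Across genes the log2 ratios of DMSO and RAC1i were related with Pearson's r of 0.50 and Spearman's rho of 0.51 over 5029 genes, and those of DMSO and Combo with 0.56 and 0.58 over 4944 genes, as a description over genes that are not independent replicates. Of the 2883 genes lower in DMSO, 2135 were measured in RAC1i, where 83.7% had the same sign and 24.3% passed the limit. In Combo 2067 were measured, of which 79.5% had the same sign and 29.2% passed. Of the 410 genes higher in DMSO, 67.8% of 351 had the same sign in RAC1i but 5.70% passed the limit, and in Combo 76.1% of 352 and 21.9%. Among all measured genes, 14.7% in RAC1i and 18.4% in Combo were lower past the limit, and 1.98% and 8.68% higher. The median gene was below 0 in both libraries, so a negative sign alone says little.

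All of the 12 genes furthest down in DMSO were also lower in both treated libraries, 9 of them past the limit in both, but by less. The log2 ratio of NEAT1, −6.83 in DMSO cells, was −1.32 for RAC1i cells and −1.47 for Combo cells. MALAT1 had 10631 CPM against 21978 CPM in RAC1i and 11322 CPM against 27545 CPM in Combo, log2 ratios of −1.05 and −1.28. Of the 12 genes furthest up, only 3 had the same sign in both treated libraries and only CKS1B was past the limit in both.

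The secretory lists lay further apart in the DMSO contrast than in the treated ones. Chaperones of the endoplasmic reticulum, 5.02-fold apart in DMSO, were 1.17-fold apart in RAC1i (1609.7 CPM against 1878 CPM) with 2 of 14 measured members lower, and 1.01-fold in Combo with 1 of 14 lower. Laminins, integrins and collagens were 1.45-fold and 1.47-fold apart, against 9.68-fold in DMSO, with 6 of 12 measured members lower in RAC1i and 9 of 16 in Combo, a larger part than the 14.7% and 18.4% of all genes. Secreted and surface proteins had 8 of 21 lower in RAC1i and 6 of 21 in Combo, with 0 and 2 higher. Nuclear long noncoding RNAs kept a difference in every library, 26.0-fold for DMSO, 2.12-fold for RAC1i and 2.46-fold for Combo. By length the highest median was at 750 to 1500 bases in both treated libraries, +0.06 in RAC1i and +0.30 in Combo, and the lowest at 6000 bases or more, −0.28 and −0.41.

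A separate question is whether low-MT cells also carried the genes that treatment changed. These were taken from kept cells over 20000 UMIs, which belong to neither group. In those cells 88 genes were over 4-fold higher and 126 genes over 4-fold lower in both treated libraries than in DMSO. They were 2.46% and 3.53% of the genes measured at 50 CPM or more. The cells over 20000 UMIs differed in mitochondrial share as well, with 2.71% below 2% in DMSO, 74.6% in RAC1i and 79.4% in Combo. Both gene sets thus also come from a contrast in mitochondrial share, and its part in the score was not tested. A score per cell, the log2 ratio of UMIs of the 88 genes to UMIs of the 126 genes at 4000 UMIs with 1 added to each, separated the libraries by its construction. The comparison of low-MT with high-MT cells and that of treated with DMSO cells share the DMSO library, so their values are only set side by side.

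Low-MT cells scored far from treated cells and nearer to high-MT cells. The median score was −1.28 in low-MT (5th to 95th percentile −2.15 to −0.39) and −1.99 in high-MT cells (−2.92 to −1.13), against 4.37 in RAC1i and 4.46 in Combo cells of the same UMI range. Only 4 of 924 low-MT cells (0.433%, 0.118 to 1.10%) and 0 of 816 high-MT cells lay within the 5th to 95th percentile of treated cells, 1.93 to 5.98, the latter allowing a share of up to 0.368% by the limit of 3 counts. By contrast 567 low-MT cells, or 61.4%, lay within that range of the high-MT cells.

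At equal UMIs the offset between both DMSO groups lay in the genes low in treated cells. At 4000 UMIs a low-MT cell had a median of 17 UMIs of the 88 genes high with treatment, a high-MT cell 20 and a RAC1i cell 232. Of the 126 genes low with treatment it had 42, against 84 in a high-MT and 11 in a RAC1i cell. Scored on the first set alone, low-MT cells lay 0.22 below high-MT cells, and on the second set alone 0.98 above them in the direction of treatment. The median gene had a log2 ratio of −0.43 with thinned UMIs. That is a median over genes, whereas the set values rest on UMIs summed over each set, so they are not like measures. The median ratio of the 88 genes is not given here. How the offset divides between the sets depends on the scaling, which was not varied for the score.

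**Figure D5:**
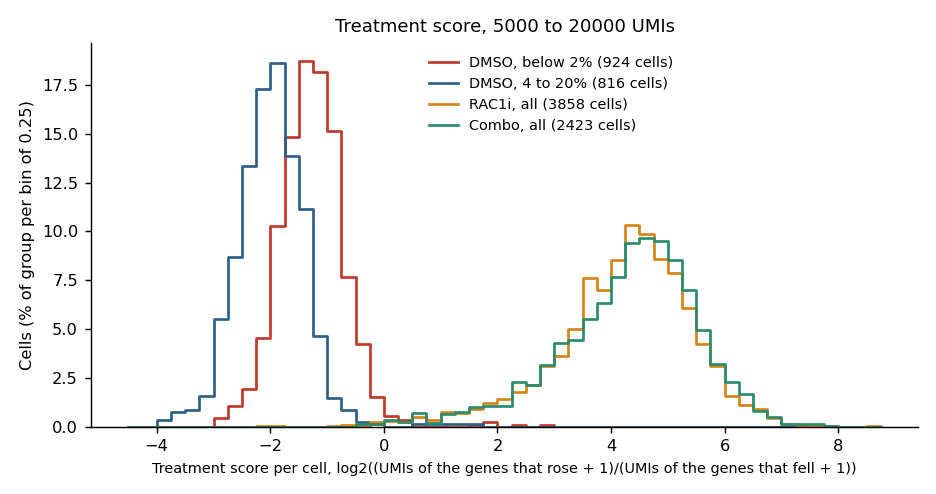
Distribution of the treatment score per cell (x axis, log2 ratio) as the percent of cells in each group (y axis) for low-MT and high-MT DMSO cells and for all RAC1i and Combo cells with 5000 to 20000 UMIs. Low-MT cells have a median of −1.28 and high-MT cells of −1.99, while RAC1i and Combo cells have medians of 4.37 and 4.46.

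The genes furthest up with treatment were chosen on their rise over DMSO. By that choice DMSO cells lie far below the treated level, so the values for low-MT cells are a description. MT2A, a metal-binding metallothionein, had 205 CPM in low-MT and 142 CPM in high-MT cells against 10943 CPM in RAC1i and 20119 CPM in Combo cells of the range. GADD45B, a stress-induced growth arrest gene, had 9.55 and 18.3 CPM against 973 and 1121 CPM. KLF10, ADM and IL6 were all under 5 CPM (4.66, 0.955 and 1.43) in low-MT cells. AC095055.1, a noncoding RNA, and KLK15, a kallikrein, which were furthest up, had 1.07 and 0.716 CPM in low-MT cells against 131 and 119 CPM in RAC1i, and ANKRD1 had 3.82 CPM against 157 CPM. NFKBIA, the inhibitor of NF-kB, is not one of the genes furthest up, with a rise of 7.47-fold in RAC1i, and is given as a marker of the study. It had 123 CPM in low-MT and 131 CPM in high-MT cells against 1601 and 1889.6 CPM.

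The genes furthest down with treatment were mixed. CDH6, a cadherin of kidney and ovarian tumours, had 122 CPM in low-MT and 911 CPM in high-MT cells, against 23.5 CPM in RAC1i and 20.9 CPM in Combo. TSHR, the thyrotropin receptor, had 19.3 and 122 CPM against 3.30 CPM in RAC1i. IDH1, the cytosolic isocitrate dehydrogenase, was close in both DMSO groups at 170.2 CPM and 194 CPM against 9.93 CPM in RAC1i. IL18, an inflammatory cytokine made without a signal peptide, was higher in low-MT cells at 59.1 against 35.8 CPM, while RAC1i cells had 5.31 CPM. Of the remaining 4, RAB11FIP4, a Rab11 effector of endosomes, and TP53INP1, a stress-induced nuclear and autophagy protein, had 106 against 279.7 CPM and 19.2 against 72.3 CPM. LMO3, a LIM-only nuclear protein, had 49.3 against 89.8 CPM, and TMEM100, a membrane protein, 91.4 against 132 CPM.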

How the data were processed

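UMI counts per gene and cell barcode were used as the authors deposited them, made with Cell Ranger 4.0.0 and default settings on GRCh38 (2020-A) from 10x Genomics 3′ v3.1 libraries, 1 library per condition as labelled. Kept cells had over 1000 genes, a ratio of log10 genes to log10 UMIs over 0.8 and at most 20% mitochondrial UMIs. UMIs were summed over each group and divided by the UMIs of the nuclear genome, so the 36601 genes enter without the 13 mitochondrial ones. Ratios carry exact 95% intervals (conditional binomial), shares exact Clopper-Pearson intervals, both for counting error only, and a group at 0 was set to 3 counts. PCR duplicates are collapsed by the UMI. For shares of cells and scores, each cell was thinned to 4000 nuclear-genome UMIs (no cell of the range had fewer). Gene positions and canonical transcript lengths came from GENCODE 44, which held 36366 of the gene IDs (99.4%).

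Named genes were the 12 furthest up and the 12 furthest down at 50 CPM or more, the extremes of each list, the mitochondrial genes, the stem and secretory genes and first markers of the study, and the 8 treatment genes furthest in each direction. Some genes named by this rule are not reported here. HSPA5, CALR, CDH1, EPCAM, MSLN, the keratins other than KRT8, WFDC2, ACTB, EEF1A1, TFAM and the other list members named were chosen after their values were seen. The cell groups and all lists were chosen with earlier results of these data known. Alternatives covered the scaling (TMM with edgeR 4.0.16 and median-of-ratios), the UMI range, the mitochondrial limits, matched depth, thinning and the CPM minimum. Sums, ratios and intervals were checked on simulated counts. Python 3.11.15 with scipy 1.17.1 and R 4.3.3 were used.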

Additional observations from a re-analysis of the deposited data

Results flagged for a closer look

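Among the genes named, 2 were past 1.5-fold in opposite directions between libraries when low-MT cells were set against high-MT cells, and these differences were not tested. NDUFA3, a subunit of respiratory complex I, had a log2 ratio of +0.88 in DMSO (443 against 241 CPM), −0.66 in RAC1i (210.5 against 334 CPM) and −0.70 in Combo (284 against 460.5 CPM). PSMB10, a subunit of the immunoproteasome, had +0.81 in DMSO (101 against 57.7 CPM), −0.61 in RAC1i (27.2 against 41.6 CPM) and −0.62 in Combo (32.6 against 50.0 CPM). Each condition was 1 library, so the spread between cultures is unknown.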

How the results depend on the processing

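The count of genes higher in low-MT cells, 410 in the report, was 978 with CPM over all UMIs, 199 with high-MT cells of 4 to 10% only, 2774 with TMM factors, 2936 with median-of-ratios factors and 890 with no CPM minimum. The count of lower genes, 2883, was 1495 with TMM factors, 1405 with median-of-ratios factors, 9729 with no minimum and 1233 at 50 CPM. The log2 ratio of summed nuclear long noncoding RNAs, −4.70, was −4.55 over all UMIs, −4.65 as a mean over cells, −4.92 at 10000 to 20000 and −4.57 at 5000 to 10000 UMIs, −4.33 against 4 to 10%, −4.80 with depth matched, −4.66 thinned, −4.73 without shared barcodes, −3.99 with TMM factors, −3.93 with median-of-ratios factors and −5.70 with MALAT1 taken off the list. Summed ribosomal proteins, at 0.56, were at 0.71, 0.58, 0.54, 0.58, 0.45, 0.60, 0.58, 1.27 and 1.33 in that order, leaving out shared barcodes, and at 0.57 without the cells of at least 0.2% MALAT1. The score difference of 0.72 was 0.64 at 5000 to 10000 UMIs, 0.62 against 4 to 10%, 0.66 with depth matched, 0.80 with genes past 2-fold, 0.98 with the genes low in treatment alone and reversed, −0.22, with the genes high in treatment alone. Among named genes past 1.5-fold, the reversed values with TMM factors were a log2 ratio of PSMD1 of 0.0798, log2 ratio of RPL7L1 of 0.0436, log2 ratio of COX6A1 of 0.00477 and log2 ratio of SDF2L1 of 0.0780, and with median-of-ratios factors 0.14, 0.11, 0.0684 and 0.14 for these genes, a log2 ratio of FLG of 0.0130 and log2 ratio of ALDH6A1 of 0.0572. These signs follow from the shift of the median gene. Of 77 named genes past 1.5-fold, 65 stayed past it in the same direction with either of these factors and 66 to 77 in the other settings. Leaving out shared barcodes or cells of at least 0.2% MALAT1 was chosen after seeing the data. The score is thinned already, so thinning gave it no separate value. Its values from 1 gene set alone follow the scaling, which was not varied for them. No paired analysis was possible because each condition was 1 library. The counts limit precision only for genes with few UMIs, such as FOSB with 6 in low-MT cells, and no setting gives the spread between cultures.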

Other observations

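DMSO cells outside the UMI range showed the pattern to different degrees. The 550 kept cells below 2% mitochondrial UMIs and under 5000 UMIs had 2999 CPM MALAT1, 227 CPM NEAT1 and 1050.4 CPM of endoplasmic reticulum chaperones, near the low-MT cells described. The 133 cells below 2% with over 20000 UMIs had 14175 CPM, 5079 CPM and 2411 CPM, against 30004 CPM, 11731 CPM and 3393 CPM in the 4020 deep cells from 4 to 20%. The 139 cells under 5000 UMIs with 4 to 20% had 34818 CPM MALAT1 and 14009 CPM NEAT1.

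The RNAs with the largest variance over mean among low-MT cells at 4000 UMIs were MALAT1 at 62.5, FTH1, the ferritin heavy chain, at 30.9, KRT81, a hair keratin, at 27.0 and NEAT1 at 15.9. KRT81 had a mean of only 0.0639 thinned UMIs per low-MT cell, so its value can rest on few cells. In high-MT cells FTH1 was at 30.9 as well, and KRT81 had too few UMIs for a comparison.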
